A study of Mus musculus with 4 samples.

Results

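The genes examined were 38 interferon-stimulated genes, chosen by symbol as well-known targets of type I and type II interferon. The annotated table of counts and FPKM holds 36 of them among 23756 genes, and 31 passed edgeR's expression filter along with the rest of the 16535 genes tested. Ifih1 and Ifi44 were not analysed here. All libraries came from 32Dcl3-Abl1ko cells, which are 32Dcl3 cells, a murine hematopoietic line that normally needs IL-3 to live and divide, in which the Abl1 kinase gene was edited with a lentiviral CRISPR/Cas9 vector. The comparison asked how expression differed between Abl1ko cells growing without IL-3 (Abl1ko/IL3-, or IL3-, replicates 1 and 2) and Abl1ko cells kept with IL-3 (Abl1ko/IL3+, or IL3+, replicates 1 and 2). The Abl1 knockout is shared by all 4 libraries, and a group with intact Abl1 was not analysed here. The study's methods state that single clones were picked, that clones 6 and 8 were used, and that growth factor-independent cells grew out of populations made with different guides after IL-3 was withdrawn, but they do not tie a clone, a guide or a population to a library. The design text calls the replicates biological duplicates, so the p-values measure the spread between these libraries and may include differences between clones.

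Interferons bind cell surface receptors that switch on the JAK kinases. Type I interferon leads to ISGF3, a complex that includes IRF9 and binds the interferon-stimulated response element (ISRE) in promoters, and targets of type II interferon often carry the gamma-activated site (GAS). The induced genes encode sensors of foreign RNA, factors that feed back on the pathway, and effectors that block steps of viral replication. Many cells, blood progenitors among them, also keep part of this set on at a basal level without added interferon.

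The promoters of 4 members are shown because they carry the element that ISGF3 binds and stand at both ends of the fold changes of such members. Of the members with an ISRE core and a mean of at least 100 counts, Ifitm3 and Ifitm2 had the lowest fold changes without IL-3 and Bst2 and Oas1a the highest. All 4 sequences were taken from RefSeq, build GRCm38.p6, lie on the minus strand and are written 5′ to 3′ along the gene. Capitals mark the ISRE core, GAAA followed by any 2 bases and GAAA, where runs of capitals longer than the core hold overlapping matches. The Ifitm3 stretch (chr7:141010715-141010854) ends 30 bases into the transcribed sequence, and those of Ifitm2 (chr7:140955962-140956101), Bst2 (chr8:71537473-71537612) and Oas1a (chr5:120907526-120907665) are the 140 bases before the start.
Ifitm3: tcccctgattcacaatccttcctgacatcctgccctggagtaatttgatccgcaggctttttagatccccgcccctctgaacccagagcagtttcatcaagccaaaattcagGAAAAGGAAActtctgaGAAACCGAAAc
Ifitm2: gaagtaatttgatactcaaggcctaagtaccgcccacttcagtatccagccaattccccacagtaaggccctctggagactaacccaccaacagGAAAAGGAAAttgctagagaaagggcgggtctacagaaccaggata
Bst2: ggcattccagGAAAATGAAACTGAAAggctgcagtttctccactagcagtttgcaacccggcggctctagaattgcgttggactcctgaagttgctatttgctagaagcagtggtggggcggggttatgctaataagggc
Oas1a: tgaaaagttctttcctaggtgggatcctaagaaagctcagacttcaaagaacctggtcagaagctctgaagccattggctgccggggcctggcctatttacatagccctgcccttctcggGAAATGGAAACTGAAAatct

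Both Ifitm genes hold the same 10 bases of core, just before the start in Ifitm2 and just after it in Ifitm3, and Ifitm3 has a further match downstream. The core lay far upstream in Bst2 and next to the start in Oas1a. RefSeq promoter windows, each of 250 bases before and 50 bases after a start, were given for 29 of the 38 members, which together had 35 windows. The core GAAANNGAAA was found on either strand in 14 of the 35 windows (40%), against 3.44% of all 32851 windows of the same length. The 14 members with it were Bst2, Ddx58, Eif2ak2, Gbp2, Gbp3, Ifih1, Ifit1, Ifit3, Ifitm2, Ifitm3, Isg15, Oas1a, Oas3 and Rsad2, or 48.3% of the members with a window. The GAS core TTCNNNGAA was in 8 of the 35 windows (22.9%), against 8.3% of all windows. A match is a description of these letters and not of a bound site. Dhx58, Oas2, Mx1, Mx2, Usp18, Parp9, Parp14, Rtp4 and Zbp1 had no window.

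The libraries held 59659395 and 60382588 counts for Abl1ko/IL3+ replicates 1 and 2, and 48953174 and 55320279 for Abl1ko/IL3- replicates 1 and 2, so that 3 counts, the limit that a count of 0 allows, stood for 0.0497 to 0.0613 CPM (counts scaled to the depth of the library), for counting error only. Abl1 itself had 1322 and 2222 counts in IL3+ against 1544 and 2256 in IL3-, and since both groups carry the knockout these values do not test the labels. The labels name a pre-B cell, but markers of myeloid progenitors summed to between 1850 and 4840 CPM in the 4 libraries and the 8 pre-B markers in the table, of 13 listed, to between 19.9 and 24.2 CPM. Most of the myeloid progenitor sum came from Mpo, Ms4a3 and Csf2rb2. Not every marker of that list was high, since Kit had 0 to 4 counts per library, Cd34 14 to 30 and Csf3r 0 to 45. The pre-B markers Pax5, Ebf1, Rag2, Blnk and Dntt were not analysed here. The 11 markers of granulocyte maturation summed to 1020 and 323 CPM in IL3+ against 942 and 5720 CPM in IL3-, a sum carried largely by Ngp. Of the 9 tested, 5 were higher in both libraries without IL-3 than in both with it, where 19.4% of all genes were. Among them S100a8 had 74 and 21 counts in IL3+ against 3410 and 7167 in IL3-. The median log2 fold change of the 9 was 4.23, but the estimates for Cxcr2 (-0.91) and Mmp9 (-0.33) were below 0. Camp, among the 5, had 4 and 0 counts in IL3+ against 21 and 193 in IL3-. It passed the expression filter only through the libraries without IL-3, where it was high, so its place in these values rests on that group. The part of granulocyte maturation in the members' values was not tested.

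The interferon-stimulated genes spanned a wide range of basal levels, with membrane restriction factors at the top and several classical members close to 0. On the FPKM scale, which is scaled for gene length and sequencing depth and so allows genes to be set side by side, 8 of the 36 members had a mean of 10 or more over the 4 libraries (Ifitm2, Ifitm3, Bst2, Lgals3bp, Ifi35, Oas1a, Isg20 and Trim25). A further 12 lay from 1 to under 10 and 16 lay under 1. The shares of all 23756 genes in these classes were 18.4%, 30.9% and 50.7%. Ifitm2, with a mean of 672 FPKM, was the highest member, followed by Ifitm3 with 163 FPKM and Bst2 with 85.1 FPKM. Isg15, among the most inducible genes of the set and encoding a ubiquitin-like modifier, had a mean of only 1.81 FPKM.

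**Figure D1:**
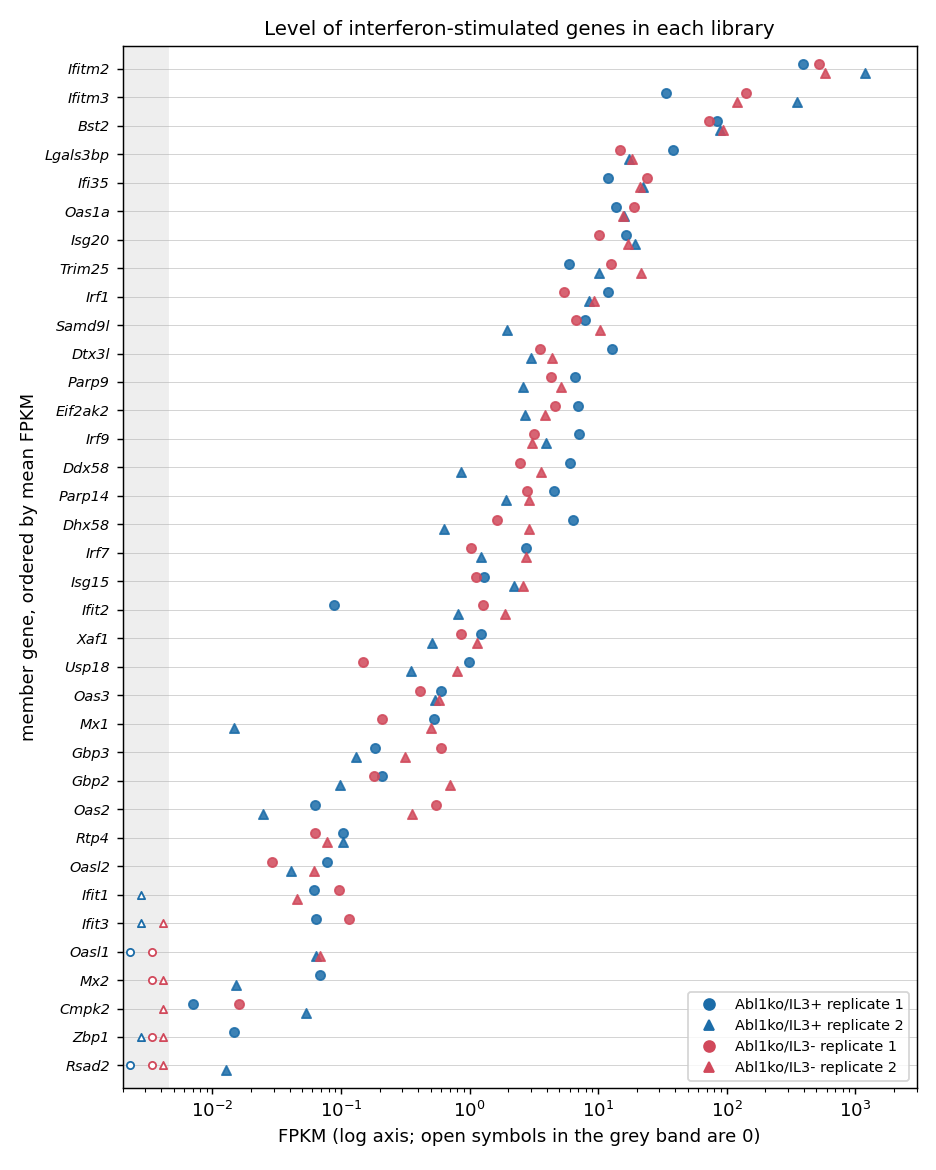
FPKM of the 36 members in the table (log axis) in each of the 4 libraries, with members ordered by mean and open symbols in the grey band for values of 0. Blue and red symbols lie interleaved for most members, and Oas2, at 0.0249 to 0.0628 FPKM with IL-3 and 0.355 to 0.546 FPKM without it, shows a gap between the groups.

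The 5 members below the expression filter had at most 17 counts in a library, and Rsad2 and Zbp1 were at the limit of counting. Rsad2, which encodes the antiviral enzyme viperin, had 4 counts in Abl1ko/IL3+ replicate 2 and 0 in the other libraries. Zbp1, a sensor of Z-form nucleic acid, had 4 counts in Abl1ko/IL3+ replicate 1 and 0 elsewhere. Both are near or under the floor of 3 counts per library, so a difference was not detectable at this depth. Mx2 had 17 and 4 counts in IL3+ against 0 and 0 in IL3-. Ifit3 had 8 and 0 counts in IL3+ against 12 and 0 in IL3-. Cmpk2, a mitochondrial nucleotide kinase gene next to Rsad2 on chromosome 12, had 3 and 16 counts in IL3+ against 4 and 0 in IL3-. None of the 5 was tested.

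Across the 31 members tested, expression without IL-3 did not differ in one direction. The members' median log2 fold change (IL3- over IL3+, as throughout) was -0.09, with 13 members higher and 18 lower, and the median over all genes tested was -0.03. The sign of the members' median was not stable, since it was 0.26 without Abl1ko/IL3+ replicate 1, 0.085 without Abl1ko/IL3- replicate 1 and 0.005 in the fit with the replicate block. The median over all genes tested moved too, and was 0.062, -0.038 and 0.035 in the same fits, in that order. At 0.05 after Benjamini-Hochberg adjustment, edgeR's quasi-likelihood F test called no member (0 of 31), where 0% of all genes tested passed. The lowest adjusted p in edgeR was 0.727 among the members and 0.335 among all genes. At an unadjusted p under 0.05 there was 1 member of 31 (3.23%), Oas2, against 5.91% of all genes. DESeq2 called 1 member, again Oas2, against 1.64% of all genes. In CPM scaled by TMM factors, 5 members were higher in both libraries without IL-3 than in both with it (16.1%, all genes 19.4%) and 5 were lower (16.1%, all genes 17.9%), shares near those of all genes. In the plot of fold changes by member the estimates lie on both sides of 0.

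**Figure D2:**
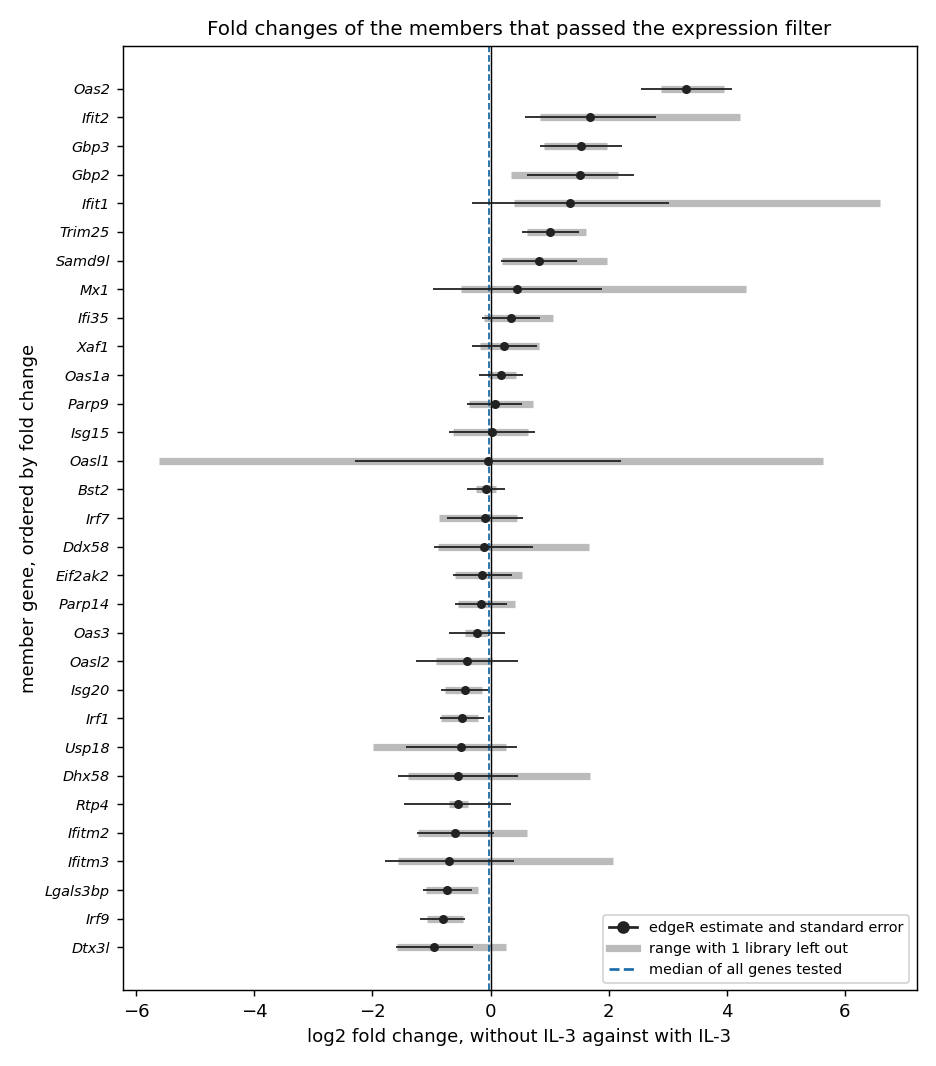
Log2 fold change of IL3- over IL3+ for the 31 members tested (black points, edgeR estimate, bars are standard errors), with the range over fits that leave out 1 library (grey bars) and the median of all genes tested (blue dashed line, -0.03). Oas2 lies at 3.31 with a range of 2.88 to 3.96, while 18 members have a grey range that crosses 0.

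Among the oligoadenylate synthetases, enzymes that answer double-stranded RNA with a second messenger for RNase L, Oas2 had the largest fold change of members tested. Oas2 (chr5:120730333-120749853) had 20 and 8 counts in Abl1ko/IL3+ replicates 1 and 2, and 138 and 100 counts in Abl1ko/IL3- replicates 1 and 2. Its FPKM values were 0.0628 and 0.0249 in IL3+ against 0.546 and 0.355 in IL3-. Both libraries without IL-3 lay above both with it, at a level that was low in every library. With IL-3 only 1 library reached 10 counts, so Oas2 passed the expression filter through the libraries without IL-3, where it was high. It was not tested where 10 counts were required in every library. The log2 fold change of Oas2 was 3.31 (standard error 0.77, unadjusted p = 0.00777, adjusted p = 0.727 in edgeR and 0.0149 in DESeq2), so the call depended on the tool. Its neighbour Oas3, 3244 bases away on chromosome 5, did not share this direction, with FPKM values of 0.605 and 0.542 in IL3+ against 0.413 and 0.581 in IL3- (log2 fold change -0.23, standard error 0.48). Oas1a, the most abundant synthetase here, was nearly level at 13.9 and 15.8 FPKM in IL3+ against 18.9 and 15.5 FPKM in IL3- (log2 fold change 0.18, standard error 0.37). Oasl2 ranged from 11 to 35 counts over the libraries (log2 fold change -0.40, standard error 0.86). Oasl1 had 0 and 12 counts in IL3+ against 0 and 12 in IL3-, so it was seen only in the replicates numbered 2 (log2 fold change -0.05, standard error 2.25, and 0.14 with library size only).

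The IFIT genes, whose products bind RNA that lacks the marks of host transcripts, lay together on chromosome 19. Ifit2 had 24 and 216 counts in IL3+ against 282 and 469 in IL3-. The groups did not overlap, yet the 2 libraries with IL-3 lay 10.7-fold apart, and the log2 fold change of 1.69 had a standard error of 1.11 (adjusted p = 0.898 in edgeR). Ifit1 had 11 and 0 counts in IL3+ against 15 and 8 in IL3-, close to the floor (log2 fold change 1.35, standard error 1.67).

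The guanylate-binding proteins, GTPases that attack the membranes around intracellular pathogens, were represented by Gbp3 and Gbp2, both at a low level and neither past the test. Gbp3 had 41 and 30 counts in IL3+ against 111 and 65 in IL3-, with no overlap (log2 fold change 1.53, standard error 0.69, adjusted p = 0.855 in edgeR). Gbp2, next to Gbp3 on chromosome 3, had 35 and 17 counts in IL3+ against 26 and 111 in IL3-. Its groups were separate only after TMM scaling, where replicate 1 of IL3+ and replicate 1 of IL3- both rounded to 0.543 CPM. They overlapped in FPKM (0.207 and 0.0982 with IL-3, 0.18 and 0.702 without it). The log2 fold change was 1.52 with a standard error of 0.90. Mx1, a dynamin-like GTPase that blocks influenza virus, had 137 and 4 counts in IL3+ against 45 and 120 in IL3-. The libraries with IL-3 thus differed 28.9-fold, the widest gap between replicates among the members with counts in every library, and the log2 fold change of 0.45 had a standard error of 1.43.

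Of the genes of ISG15 and ubiquitin chemistry, Trim25 had no overlap between groups at a level well above the floor. Trim25 (chr11:88999376-89020293) encodes the ubiquitin ligase that activates the RNA sensor RIG-I, and it had 5.99 and 10.1 FPKM in IL3+ against 12.6 and 21.4 FPKM in IL3- (8.02 ± 2.87 and 17.0 ± 6.22, mean ± SD, n = 2 each). The log2 fold change was 1.01 (standard error 0.48, adjusted p = 0.86 in edgeR), and it stayed above 0 in every alternative fit and without each library in turn. Isg15 had 66 and 114 counts in IL3+ against 48 and 125 in IL3-, so the replicates within each group lay further apart than the group means (log2 fold change 0.02, standard error 0.73). Usp18, the protease that removes ISG15 and dampens the type I interferon receptor, had 188 and 68 counts in IL3+ against 25 and 141 in IL3-. Its groups overlapped and the libraries without IL-3 differed 4.65-fold (log2 fold change -0.50, standard error 0.94).

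Dtx3l, Parp9 and Parp14 form a cluster on chromosome 16, and Dtx3l and Parp9 encode a ubiquitin ligase and an ADP-ribosyltransferase that work as a complex. Dtx3l had 12.9 and 3.01 FPKM in IL3+ against 3.55 and 4.39 FPKM in IL3-. Parp9 had 6.57 and 2.60 FPKM in IL3+ against 4.27 and 5.14 FPKM in IL3-. Parp14 had 4.53 and 1.93 FPKM in IL3+ against 2.79 and 2.88 FPKM in IL3-. All 3 were highest in Abl1ko/IL3+ replicate 1 and lowest in Abl1ko/IL3+ replicate 2, with both libraries without IL-3 in between. Dtx3l had the lowest fold change of all members, -0.95 on the log2 scale, but its standard error was 0.65 and its value was 0.26 without Abl1ko/IL3+ replicate 1. Exons of Dtx3l and Parp9 overlap by 458 bases on opposite strands, and without a stated strand setting their reads there cannot be told apart.

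The RNA sensors also had both their highest and their lowest values in the libraries with IL-3. Ddx58, which encodes RIG-I, had 2875 and 418 counts in IL3+ against 983 and 1610 in IL3-. Dhx58, which encodes the related LGP2, had 1405 and 141 counts in IL3+ against 304 and 595 in IL3-. Eif2ak2, which encodes the kinase PKR that halts translation on double-stranded RNA, had 2412 and 931 counts in IL3+ against 1333 and 1248 in IL3-. Summed over these sensors, FPKM was 19.5 and 4.17 in IL3+ against 8.79 and 10.4 in IL3-, so that both extremes came from the group with IL-3. None differed between groups beyond this spread, with log2 fold changes of -0.12 (standard error 0.84) for Ddx58, -0.55 (standard error 1.01) for Dhx58 and -0.14 (standard error 0.50) for Eif2ak2. The sign for Ddx58 and Dhx58 turned with the replicate number as a block and with limma on log2(FPKM + 0.1), where their values were above 0.

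Macrophage and monocyte markers, when summed, had the same order of libraries as the summed FPKM of the sensors, but single markers did not all share it. Over 9 of 10 markers the sum was 323 and 67.7 CPM in IL3+ against 87.4 and 176 CPM in IL3-. Most of these counts came from Adgre1 and Cd68, while C1qb had 1104 counts in Abl1ko/IL3+ replicate 1 and 0 in Abl1ko/IL3- replicate 1, and C1qa and Mrc1 were at 0 in Abl1ko/IL3+ replicate 2. Other orders were seen for Fcgr1 (329 and 1117 counts in IL3+, 532 and 593 in IL3-), C1qc (46 and 80, 12 and 27) and Ccr2 (9 and 0, 26 and 106). In bulk libraries fewer cells of a type and less RNA per cell cannot be told apart. The part of these cells in the sensors' values was not tested.

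The estimates for the 3 interferon regulatory factors among the members, Irf1, Irf7 and Irf9, were below 0, but none passed the test. Irf9 (chr14:55603571-55610030), the DNA-binding part of ISGF3, had 7.14 and 3.92 FPKM in IL3+ against 3.16 and 3.07 FPKM in IL3-. Both libraries without IL-3 lay below both with it (5.53 ± 2.27 and 3.11 ± 0.0632 FPKM, mean ± SD, n = 2 each), and the log2 fold change was -0.81 (standard error 0.38, adjusted p = 0.855 in edgeR). This direction held in every alternative fit and without each library in turn. Part of an Irf9 exon, 123 bases, overlaps Rnf31 on the same strand, so reads there may belong to either gene. Irf1, an early responder to type II interferon, had 11.9 and 8.57 FPKM in IL3+ against 5.48 and 9.27 FPKM in IL3-. Its groups were separate only after TMM scaling and by a narrow margin (log2 fold change -0.49, standard error 0.37). Irf7, which amplifies the type I interferon response, had 702 and 317 counts in IL3+ against 217 and 650 in IL3-. Its groups overlapped fully (log2 fold change -0.09, standard error 0.64, and -0.88 to 0.45 without each library in turn).

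The membrane restriction factors were the most abundant members and behaved differently from the sensors. Ifitm2 and Ifitm3 encode related small proteins that block fusion of enveloped viruses. Ifitm2 (chr7:140954837-140955987) had 393 and 1190 FPKM in IL3+ against 523 and 587 FPKM in IL3-. Ifitm3 (chr7:141009586-141010770) had 33.8 and 355 FPKM in IL3+ against 142 and 120 FPKM in IL3-. Both were lowest in Abl1ko/IL3+ replicate 1 and highest in Abl1ko/IL3+ replicate 2, the reverse of Ddx58 and Dhx58, and the libraries without IL-3 again lay in between. The gap between the replicates with IL-3 was 3.62-fold for Ifitm2 and 12.6-fold for Ifitm3, against 1.04-fold and 1.28-fold without IL-3. Their log2 fold changes were -0.60 (standard error 0.65) and -0.70 (standard error 1.09), and that of Ifitm3 was 0.23 with the replicate block. Bst2, or tetherin, which holds budding virions at the cell surface, was the steadiest abundant member, with 83.7 and 89.3 FPKM in IL3+ against 72.7 and 94.5 FPKM in IL3- (log2 fold change -0.08, standard error 0.32). The Ifitm genes are close paralogs, and 268 bases of Ifitm2 exons also belong to Gm45717 on the same strand, so how their reads were shared out is uncertain. The same holds for members of the Oas, Gbp, Ifit and Mx families.

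**Figure D3:**
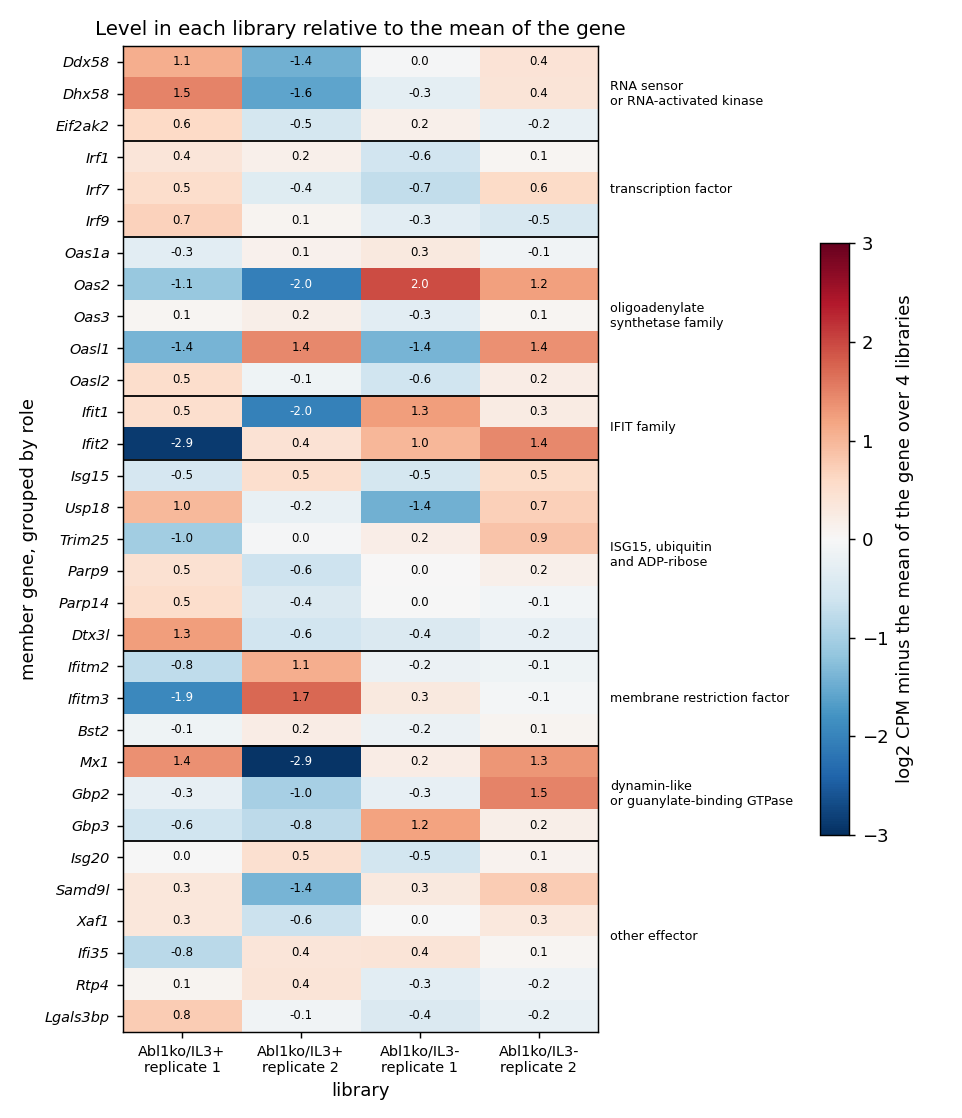
Log2 CPM (prior count 2) of each of the 31 members tested minus the mean of that gene over the 4 libraries, with members grouped by role and red for above the mean. The sensors are highest in the first column and lowest in the second, Ifitm2 and Ifitm3 show the reverse, and Oas2 is below its mean in both libraries with IL-3 (-1.1 and -2.0) and above it in both without (2.0 and 1.2).

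Of the other effectors, Lgals3bp and Samd9l had the largest estimates, in opposite directions. Lgals3bp, a secreted glycoprotein that binds galectins, had 38.1 and 17.3 FPKM in IL3+ against 14.7 and 18.3 FPKM in IL3-. It was highest in Abl1ko/IL3+ replicate 1, the other libraries lay close to each other, and the groups were separate only after TMM scaling (log2 fold change -0.73, standard error 0.41, adjusted p = 0.874 in edgeR). Samd9l, which restricts translation and the growth of myeloid cells, had 7.97 and 1.97 FPKM in IL3+ against 6.76 and 10.3 FPKM in IL3-. Only Abl1ko/IL3+ replicate 2 was low (log2 fold change 0.82, standard error 0.64). Isg20, an RNA exonuclease, had 16.5 and 19.3 FPKM in IL3+ against 10.2 and 17.2 FPKM in IL3- (log2 fold change -0.44, standard error 0.40). Xaf1, a pro-apoptotic factor, had 1.22 and 0.509 FPKM in IL3+ against 0.853 and 1.15 FPKM in IL3- (log2 fold change 0.23, standard error 0.55). Ifi35 had 11.9 and 22.5 FPKM in IL3+ against 24.2 and 21.1 FPKM in IL3- (log2 fold change 0.34, standard error 0.49). Rtp4 had 15 and 16 counts in IL3+ against 8 and 11 in IL3-, lower in both libraries but at a level where the standard error of 0.91 exceeded the log2 fold change of -0.56.

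The members varied more between the replicates with IL-3 than between those without it. In TMM-scaled CPM, 17 of 31 members differed 2-fold or more between the 2 libraries with IL-3 (54.8%, all genes 40.5%), and 8 of 31 between the 2 without it (25.8%, all genes 19.7%). A wider gap with IL-3 was thus a property of genes at large and not of the members alone. Abl1ko/IL3+ replicate 1 held the highest value for 13 members and Abl1ko/IL3+ replicate 2 the lowest for 13. Over all genes these libraries held the highest value for 31.8% and the lowest for 30.4%. Of the 31 members tested 1, Irf9, had its lowest value in Abl1ko/IL3- replicate 2, which held the lowest value for 14.5% of all genes. The plot of one replicate over the other shows the sensors and Mx1 to the right and the Ifitm genes and Ifit2 to the left.

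**Figure D4:**
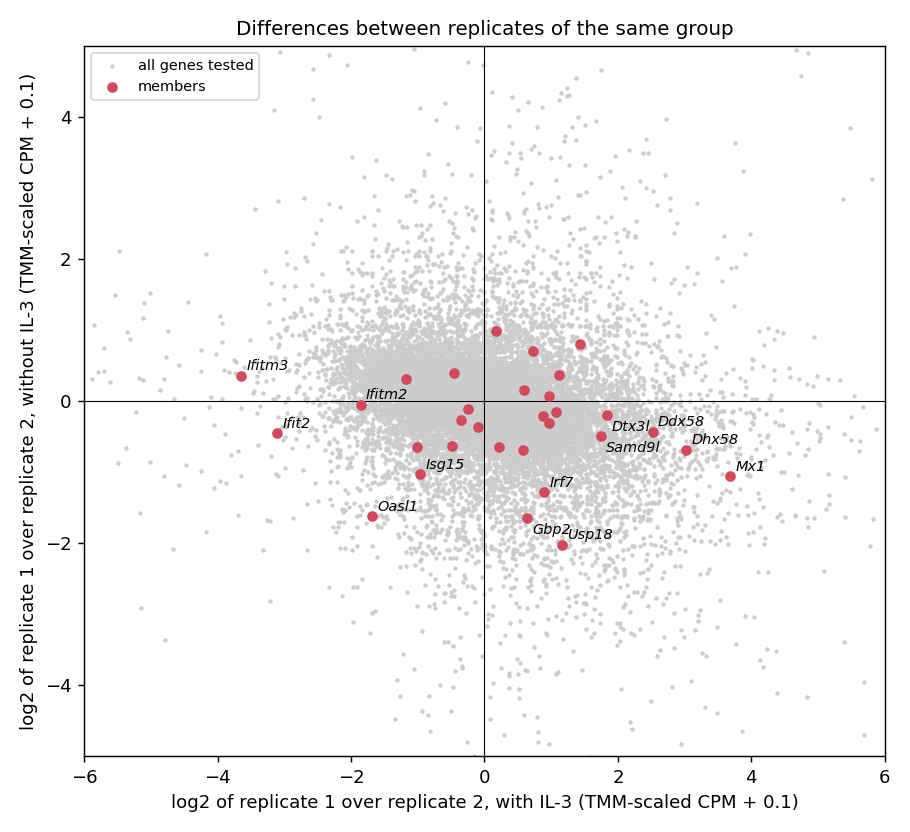
Log2 ratio of replicate 1 over replicate 2 with IL-3 (horizontal) and without IL-3 (vertical), in TMM-scaled CPM with 0.1 added, for the 31 members (red) and the 16535 genes tested (grey), of which 85 lie outside the axes. Mx1, Dhx58 and Ddx58 lie at the right and Ifitm3 and Ifit2 at the left, close to the horizontal line.

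Among the tested members with a promoter window, the ISRE core did not separate members by direction. Oas2, the member with the largest fold change, had no window and was left out of this split. For the 11 tested members with the core the median log2 fold change was -0.08, with 5 higher and 6 lower and a range of -0.70 to 1.53. The 13 tested members whose windows lacked it had a median of -0.09, with 5 higher and 8 lower and a range of -0.95 to 1.69. Neighbours in the genome did not always share a direction either. Oas2 and Oas3 had estimates of opposite sign, and so had Dtx3l and Parp9, whereas Ifitm2 and Ifitm3 and the pair of Gbp genes had estimates of the same sign.

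The genes that start and carry the interferon signal were read from a list of 68, of which 45 were in the table and 41 were tested. Of the 21 interferon ligands only Ifnz, with 19 to 41 counts per library, and Ifna9, with 4 counts in Abl1ko/IL3- replicate 2 and 0 elsewhere, were in the table. The other ligands were not analysed here. Of the 6 receptor genes 5 passed the expression filter. Ifngr2 and Ifngr1, the chains of the type II receptor, had mean levels of 16.7 and 8.49 FPKM, and Ifnar2, a chain of the type I receptor, had 15.0 FPKM. Ifngr1 was higher in both libraries without IL-3, at 7.90 and 3.59 FPKM in IL3+ against 10.4 and 12.1 FPKM in IL3- (log2 fold change 0.99, standard error 0.43, adjusted p = 0.854 in edgeR). The kinases Jak2 and Jak1 had the same order of libraries as Ddx58 and Dhx58, with 35.3 and 13.5 FPKM for Jak2 with IL-3 and 17.3 and 22.9 FPKM without it. The inhibitor Ptpn6, the phosphatase SHP1, was the most abundant of the list at a mean of 111 FPKM, ahead of Jak2 at 22.2 and of the phosphatase Ptpn2 at 22.0 FPKM.

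None of these 41 genes passed edgeR's adjusted threshold, while 2 had an unadjusted p under 0.05, both higher without IL-3 (all genes 5.91%), and DESeq2 called 1 (all genes 1.64%). That gene, Irf4, a factor of lymphoid and myeloid differentiation, had 8 and 8 counts in IL3+ against 29 and 285 in IL3-. Irf4 passed the expression filter only through the libraries without IL-3, where it was high, so its call rests on that group. Its highest value by far was in Abl1ko/IL3- replicate 2, the library with the highest granulocyte markers, whose part in this value was not tested (log2 fold change 4.33, standard error 1.23, adjusted p = 0.727 in edgeR and 0.0194 in DESeq2). The median log2 fold change of the 41 genes was -0.23, with 5 genes higher and 6 lower without overlap, where 19.4% and 17.9% of all genes were.

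A further 86 genes known as interferon-stimulated were read beside the members, of which 74 were in the table and 65 were tested. By edgeR and by DESeq2 0 of them passed the adjusted threshold. At an unadjusted p under 0.05 in edgeR there were 2 higher and 4 lower genes without IL-3, 6 of 65 in all, against 5.91% of all genes. Their median log2 fold change was 0.08, and 19 of 65 were higher and 13 lower without overlap between the groups, against 19.4% and 17.9% of all genes. The most abundant were Ifitm1, at 1490 and 3240 FPKM in IL3+ against 2610 and 2420 FPKM in IL3-, and Ly6e, at 306 and 893 FPKM in IL3+ against 760 and 612 FPKM in IL3-. Both had their lowest and highest values in the libraries with IL-3, as Ifitm2 and Ifitm3 had. Lgals9, which encodes galectin-9 and had the lowest p of this list, had 134 and 185 FPKM in IL3+ against 63.2 and 65.0 FPKM in IL3-. Its libraries without IL-3 lay below those with it and close to each other (log2 fold change -1.36, standard error 0.38, unadjusted p = 0.0166, adjusted p = 0.727 in edgeR).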

How the data were processed

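RNA depleted of ribosomal RNA was sequenced on an Illumina HiSeq instrument. Per the paper's methods, the authors aligned reads to GRCm38 and made gene counts with Rsubread's align and featureCounts with mm10 annotation, whereas the submitters' processing notes name STAR, Cuffdiff and mm10. The sources used here give no versions, no strand setting and no rule for read pairs. The authors deposited raw counts per gene in an annotated table, with FPKM values beside them, and a second deposited table that held the same counts. How multi-mapped reads were counted affects paralogs.

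The tool was edgeR 4.0.16 (R 4.3.3). After filterByExpr and TMM scaling, genes were tested by the quasi-likelihood F test, two-sided, adjusted by Benjamini-Hochberg over 16535 genes, with a threshold of 0.05. Standard errors are the log2 fold change divided by the square root of F, and gene positions are those of the deposited table (GRCm38). An exact permutation test of 2 against 2 libraries cannot go below 0.33 and was not used. The steps were tested on simulated data whose spread was set and not taken from these libraries, so power here was not measured. The members and gene lists were chosen with earlier results of these data known. Every member was named, and of each other list the 3 genes with the highest mean FPKM, the gene with the lowest p and any gene past the threshold. Genes of those lists named beyond this rule were chosen after their values were seen.

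Alternatives were DESeq2 1.42.0, limma 3.58.1 on log2(FPKM + 1) and log2(FPKM + 0.1), library size only, no filter, 10 counts in every library, FPKM overlap, the replicate block and leaving out each library. Deviations of same-numbered libraries correlated at -0.194 across genes. With 2 libraries a group this cannot show whether the numbers paired the libraries, so the pairing is unknown. The main fit used no pairing, and the crossed pairing was added after seeing the data. Promoters came from RefSeq (GRCm38.p6). The gene coordinates of 90.6% of rows equalled those of GENCODE release M21, which was used for overlaps.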

Additional observations from a re-analysis of the deposited data

How the results depend on the processing

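With 2 libraries a group, a lone library can set a member's direction, and members at or near 0 counts were limited by depth. No member was called in 11 of the 12 alternatives, with a lowest adjusted p of 0.17 to 1.0 by edgeR and limma, and DESeq2 called 1 member (Oas2) and 1 signalling gene (Irf4). The cause was not tested.

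Members lower without overlap fell from 5 to 2 with library size only and to 2 with FPKM as deposited, where Irf9 and Rtp4 remained. Leaving out each library gave medians of -0.347 to 0.26 (0.26 without Abl1ko/IL3+ replicate 1 and 0.085 without Abl1ko/IL3- replicate 1), 8 to 15 members higher and 5 to 15 lower without overlap, where fewer libraries had to be separate. In these fits of 3 libraries the lone library was assumed to vary like the other group. The shares of all genes without overlap were not computed for these fits, for library size only or for FPKM. The members' counts without overlap in those settings were thus not compared with all genes.

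The median was also above 0 with the replicate block (0.005), the crossed pairing (0.092) and limma (0.004 and 0.024 with 1 and 0.1 added to FPKM). In the same fits the median over all genes tested was 0.035, 0.034, 0.011 and 0.038. The members thus lay above all genes only with the crossed pairing and below them in the others. The direction of 13 of 31 members held in every fit that tested them, 18 turned without 1 library and 4 of these in another fit of all libraries. With 10 counts in every library only 26 members were tested, and Oas2, Ifit1, Rtp4, Mx1 and Oasl1 were left out. With the replicate block no member was called (lowest adjusted p 1.0 in edgeR, 2 unadjusted) and the log2 fold changes of Ddx58, Dhx58 and Ifitm3 became 0.36, 0.10 and 0.23. With the crossed pairing, chosen after seeing the data, 0 members were called, and Ddx58, Dhx58, Oasl1 and Ifitm3 became 0.36, 0.09, 0.15 and 0.23. With library size only Oasl1 became 0.14. By limma on log2(FPKM + 1) Ddx58 and Ifitm3 became 0.14 and 0.24, and on log2(FPKM + 0.1) Ddx58, Dhx58, Oasl1 and Ifitm3 became 0.35, 0.07, 0.02 and 0.25. The cause was not tested.

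Without each library in turn, log2 fold changes ranged from -0.63 to 0.63 for Isg15, -0.89 to 1.67 for Ddx58, -1.39 to 1.69 for Dhx58, -0.03 to 0.43 for Oas1a, -5.62 to 5.62 for Oasl1, -0.92 to 0.02 for Oasl2, -0.88 to 0.45 for Irf7, -0.50 to 4.33 for Mx1 and -0.24 to 0.10 for Bst2. They ranged from -1.99 to 0.26 for Usp18, -0.12 to 1.05 for Ifi35, -1.23 to 0.61 for Ifitm2, -1.57 to 2.07 for Ifitm3, -0.37 to 0.72 for Parp9, -0.56 to 0.42 for Parp14, -1.59 to 0.26 for Dtx3l, -0.60 to 0.54 for Eif2ak2 and -0.18 to 0.82 for Xaf1.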

Other observations

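Further interferon-stimulated genes outside the 38 members, chosen after their values were seen, had an unadjusted p under 0.05 in edgeR without passing the adjusted threshold. Nlrc5, a regulator of MHC class I genes, had 674 and 96 counts in IL3+ against 32 and 46 in IL3- (log2 fold change -3.06, standard error 0.99, adjusted p = 0.785 in edgeR). Mov10, an RNA helicase, had 1857 and 1745 counts in IL3+ against 651 and 838 in IL3- (log2 fold change -1.12, standard error 0.35, adjusted p = 0.766 in edgeR). Ifi47, an immunity-related GTPase, had 1284 and 1727 counts in IL3+ against 595 and 294 in IL3-, while Ly6a, the stem cell antigen Sca-1, had 68 and 19 counts in IL3+ against 127 and 372 in IL3-. Gbp9, a further guanylate-binding protein, had 54 and 12 counts in IL3+ against 77 and 353 in IL3-. Among adaptors, Ticam2, which links Toll-like receptors to interferon induction, had 97 and 137 counts in IL3+ against 273 and 471 in IL3- (log2 fold change 1.78, standard error 0.55, adjusted p = 0.768 in edgeR). In each of these genes both libraries without IL-3 lay on the same side of both libraries with it. Since the genes were picked by their p in these same libraries, this separation adds no support. Of all genes tested, 19.4% were higher and 17.9% lower without overlap.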
